A study of Homo sapiens with 9 samples.

Results

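The 9 genes reported here are noncoding host genes of small nucleolar RNAs (snoRNAs): GAS5, SNHG1, SNHG3, SNHG5, SNHG6, SNHG7, SNHG8, SNHG12 and ZFAS1. They were chosen by name as a class, out of 19722 genes named on the arrays, and every probe assigned to 1 of the 9 symbols was used. The cells are ALL-SIL, a T-cell acute lymphoblastic leukemia line, electroporated with a control siRNA, with PHF6 siRNA1 or with PHF6 siRNA2. The labels give collection at 96 h and a free-text description gives 72 h. Of the PHF6 reagents, 1 was a Silencer Select siRNA and 1 an ON-TARGETplus pool, and which of them is siRNA1 is not stated. Each of the 3 groups has 3 arrays, described as independent biological replicates and numbered 1 to 3 in the labels.

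Hosts of this class carry snoRNAs in their introns, which are released during splicing and guide the modification and processing of ribosomal RNA. The joined exons leave the nucleus, and for several hosts they are translated briefly and then removed by nonsense-mediated decay. PHF6 is a plant homeodomain finger protein found in the nucleolus, where ribosomal RNA is made.

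Values below are log2 intensities after variance-stabilizing normalization (VSN). A log2 fold change above 0 means higher with the PHF6 siRNA, SE is its standard error, and the adjusted p is corrected over all 33595 tested probes, with a threshold of 0.05. Where a block is named, arrays were compared within the same replicate number. The cells carry the markers of their lineage. All 9 T-lineage genes looked at (CD7, CD3D, CD3E, CD1A, CD1E, LCK, TCF7, PTCRA and TLX1) were well above background on 9 of 9 arrays. Among genes of other lineages, HBB and EPCAM were well above background on 0 arrays, COL1A1 on 1, MS4A1 on 3 and MPO on 7, while CD79A and CD14 were on all 9. In a fit blocked by replicate number, CD7 (log2 fold change -0.76, adjusted p 0.0113) and PTCRA (-0.73, adjusted p 0.00749) fell with the PHF6 siRNAs, and without the block their adjusted p was 0.580 and 0.644. These are 2 of 11 T-lineage probes, where 2.87% of all tested probes pass with the block, and CD1A lay the other way at 0.71 without passing (adjusted p 0.0695 with the block). Blocked, the marker probes past the threshold number 0 without the arrays of replicate 1, 0 without those of replicate 2 and 2 without those of replicate 3.

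The siRNAs lowered their target. PHF6 read 11.07, 11.17 and 10.86 in control replicates 1, 2 and 3, 9.39, 9.69 and 9.12 with siRNA1, and 9.21, 9.28 and 9.14 with siRNA2. All 6 PHF6 siRNA arrays lie below every control array. PHF6 fell by a log2 fold change of -1.73 with both siRNAs (SE 0.14, adjusted p 0.00228), -1.63 with siRNA1 (adjusted p 0.0165) and -1.82 with siRNA2 (adjusted p 0.00555). The exact p was 0.0119 over the 84 splits of 6 against 3 arrays and 0.0370 over the 27 arrangements within replicate numbers, the smallest values these designs allow. With both siRNAs PHF6 passed without any single array. When VSN was fitted to the background-subtracted (processed) signal it did not pass with both siRNAs (-1.84, adjusted p 0.0659), siRNA1 (-1.74, 0.152) or siRNA2 (-1.93, 0.128), nor with scaling to the 75th percentile for siRNA1 (-1.69, 0.0534) and siRNA2 (-1.89, 0.0586). With siRNA1 alone it did not pass without control replicate 1 (adjusted p 0.115), siRNA1 replicate 1 (0.0798), control replicate 2 (0.194), siRNA2 replicate 2 (0.0673) or control replicate 3 (0.0587), and with siRNA2 alone without control replicate 1 (0.0646), control replicate 2 (0.0732) or siRNA2 replicate 2 (0.0570). In these fits the log2 fold change of PHF6 ran from -1.72 to -1.56 with siRNA1 and from -1.86 to -1.75 with siRNA2. All the fits in which PHF6 did not pass were without the block. With the replicate block it passed under both of the scalings named above.

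The 9 host genes have 10 probes, 2 of them for SNHG7, and none of the 10 belongs to the custom lncRNA content. All 10 were well above background on 9 of 9 arrays. In limma, 0 of 10 passed an adjusted p of 0.05 with both PHF6 siRNAs against control (3 of 33595 probes, 0.00893%), 0 with siRNA1 against control (3 probes, 0.00893%), 0 with siRNA2 against control (4 probes, 0.0119%) and 0 with siRNA2 against siRNA1 (4 probes, 0.0119%). At an unadjusted p under 0.05 the host probes number 0, 1, 0 and 1, against 7.43%, 5.94%, 5.91% and 2.49% of all tested probes. Blocked by replicate number, the host probes past the adjusted threshold are again 0 in each of the 4 comparisons, where 964 (2.87%), 328 (0.976%), 594 (1.77%) and 13 (0.0387%) of all probes pass, and at an unadjusted p under 0.05 they number 1, 2, 0 and 4 of 10, against 21.9%, 19.3%, 19.5% and 9.74% of all tested probes. The median log2 fold change of the host probes was 0.05, -0.03, 0.12 and 0.15, against -0.00, -0.00, 0.01 and 0.01 for all tested probes. With other scalings or arrays left out these medians ran from -0.071 to 0.14, -0.23 to 0.074, -0.010 to 0.23 and 0.079 to 0.23, so the first 3 change sign. For siRNA2 the sign changes only without control replicate 3, in a fit without the block. With the block, leaving out all arrays of replicate 1, 2 or 3 gave siRNA2 medians of 0.090, 0.094 and 0.070.

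GAS5 carries box C/D snoRNAs, and its spliced RNA builds up in growth-arrested cells. It read 16.33, 16.39 and 16.04 in control replicates 1, 2 and 3, 16.33, 16.39 and 16.10 with siRNA1, and 16.39, 16.50 and 16.16 with siRNA2. Replicate 3 is lowest in each of the 3 groups, and the groups overlap. The log2 fold change with both siRNAs was 0.06 (SE 0.13, adjusted p 0.946), with differences from the control of the same replicate number of 0.03, 0.06 and 0.09.

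SNHG1 carries box C/D snoRNAs in most of its introns. Its values were 14.97, 14.53 and 14.31 in control replicates 1, 2 and 3, 15.10, 14.39 and 14.31 with siRNA1, and 15.23, 14.84 and 14.44 with siRNA2. Replicate 1 is highest and replicate 3 lowest in every group, and the groups overlap. With both siRNAs the log2 fold change was 0.11 (SE 0.23, adjusted p 0.940), and siRNA2 alone gave 0.23 (adjusted p 0.939).

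SNHG3 hosts the 2 copies of SNORA73, a snoRNA needed to process the precursor of 18S ribosomal RNA. Control replicates 1, 2 and 3 read 13.78, 13.79 and 13.94, those of siRNA1 13.54, 13.34 and 13.85, and those of siRNA2 13.55, 13.49 and 13.95. In replicates 1 and 2 both PHF6 siRNAs lie below every control array, and in replicate 3 they lie among the controls or above them. The log2 fold change with both siRNAs was -0.22 (SE 0.15, adjusted p 0.783), and the exact p was 0.179 over splits and 0.0741 within replicate numbers.

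SNHG5 carries the SNORD50 pair. The arrays gave 16.30, 16.30 and 15.68 for control replicates 1, 2 and 3, 16.26, 16.15 and 16.10 for siRNA1, and 16.25, 16.32 and 16.14 for siRNA2. Control replicate 3 is the lowest of the 9 arrays, and the remaining 8 overlap across groups. Its log2 fold change was 0.11 with both siRNAs (SE 0.15, adjusted p 0.904), made of -0.05, -0.06 and 0.45 in replicates 1, 2 and 3. SNHG6, the host of SNORD87, read 16.45, 16.54 and 16.30 in control replicates 1, 2 and 3, 16.35, 16.13 and 16.15 with siRNA1, and 16.51, 16.49 and 16.32 with siRNA2. Within each replicate number siRNA1 is the lowest of the 3 arrays, yet siRNA1 replicate 1 lies above control replicate 3, so the groups overlap. The log2 fold change of SNHG6 was -0.22 with siRNA1 (SE 0.13, adjusted p 0.866) and 0.01 with siRNA2 (SE 0.13, adjusted p 0.995).

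SNHG7 hosts the SNORA17 pair and is the member read by 2 probes, each assigned to a different transcript. Probe A_24_P352116 gave 9.71, 9.78 and 9.98 in control replicates 1, 2 and 3, 9.42, 9.56 and 9.46 with siRNA1, and 9.66, 9.93 and 9.77 with siRNA2. The 3 siRNA1 arrays lie below every control array, and siRNA2 overlaps the control. The share of all tested probes whose siRNA1 and control arrays do not overlap was not counted. With siRNA1, 0.00893% of all tested probes passed the adjusted threshold, and this probe is not among them. Its log2 fold change was -0.34 with siRNA1 (SE 0.13, unadjusted limma p 0.0275, adjusted p 0.828) and -0.03 with siRNA2 (SE 0.13, adjusted p 0.986). Probe A_33_P3280927 gave 13.31, 13.16 and 12.48 in control replicates 1, 2 and 3, 13.26, 12.68 and 12.41 with siRNA1, and 13.54, 13.21 and 12.78 with siRNA2. Within each replicate number siRNA1 is lowest and siRNA2 highest, while the groups overlap because the replicates lie far apart. Its log2 fold change was -0.20 with siRNA1 (SE 0.28, adjusted p 0.938) and 0.19 with siRNA2 (SE 0.28, adjusted p 0.954).

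SNHG8 carries SNORA24. It was the steadiest host gene across the arrays, at 15.72, 15.79 and 15.59 in control replicates 1, 2 and 3, 15.66, 15.88 and 15.62 with siRNA1, and 15.81, 15.75 and 15.67 with siRNA2. The groups overlap, and the standard deviation over the 9 arrays was 0.09, the smallest of the 10 probes. The log2 fold change with both siRNAs was 0.03 (SE 0.11, adjusted p 0.968).

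SNHG12, which carries H/ACA and C/D snoRNAs, read 13.57, 13.61 and 13.45 in control replicates 1, 2 and 3, 13.82, 13.28 and 13.39 with siRNA1, and 13.97, 13.66 and 13.52 with siRNA2. In replicate 1 both PHF6 siRNAs lie above all controls, and in replicates 2 and 3 siRNA1 lies below them all, so siRNA1 spans the control range on both sides. SNHG12 gave a log2 fold change of 0.06 with both siRNAs (SE 0.15, adjusted p 0.950). ZFAS1, the host of the SNORD12 family, read 15.74, 15.87 and 15.58 in control replicates 1, 2 and 3, 16.08, 16.03 and 15.54 with siRNA1, and 15.88, 16.21 and 15.63 with siRNA2. Replicate 3 is lowest in every group, and the groups overlap. For ZFAS1 the log2 fold change with both siRNAs was 0.17 (SE 0.17, adjusted p 0.860).

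The intervals bound how large a difference these arrays leave room for. The 95% intervals of the 10 host probes with both PHF6 siRNAs against control run from -0.55 at the lowest to 0.62 at the highest, so each lies within a 2-fold change in either direction, as for 96.1% of all tested probes. Within 0.5 on the log2 scale lie 6 of the 10 without the block and 10 of 10 with it, against 57.1% and 81.2% of all tested probes. The lowest and highest bounds with the block were -0.42 and 0.38. For siRNA1 they were -0.82 and 0.58 without the block and -0.58 and 0.40 with it, and for siRNA2 -0.56 and 0.82 without and -0.41 and 0.46 with it.

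**Figure D1:**
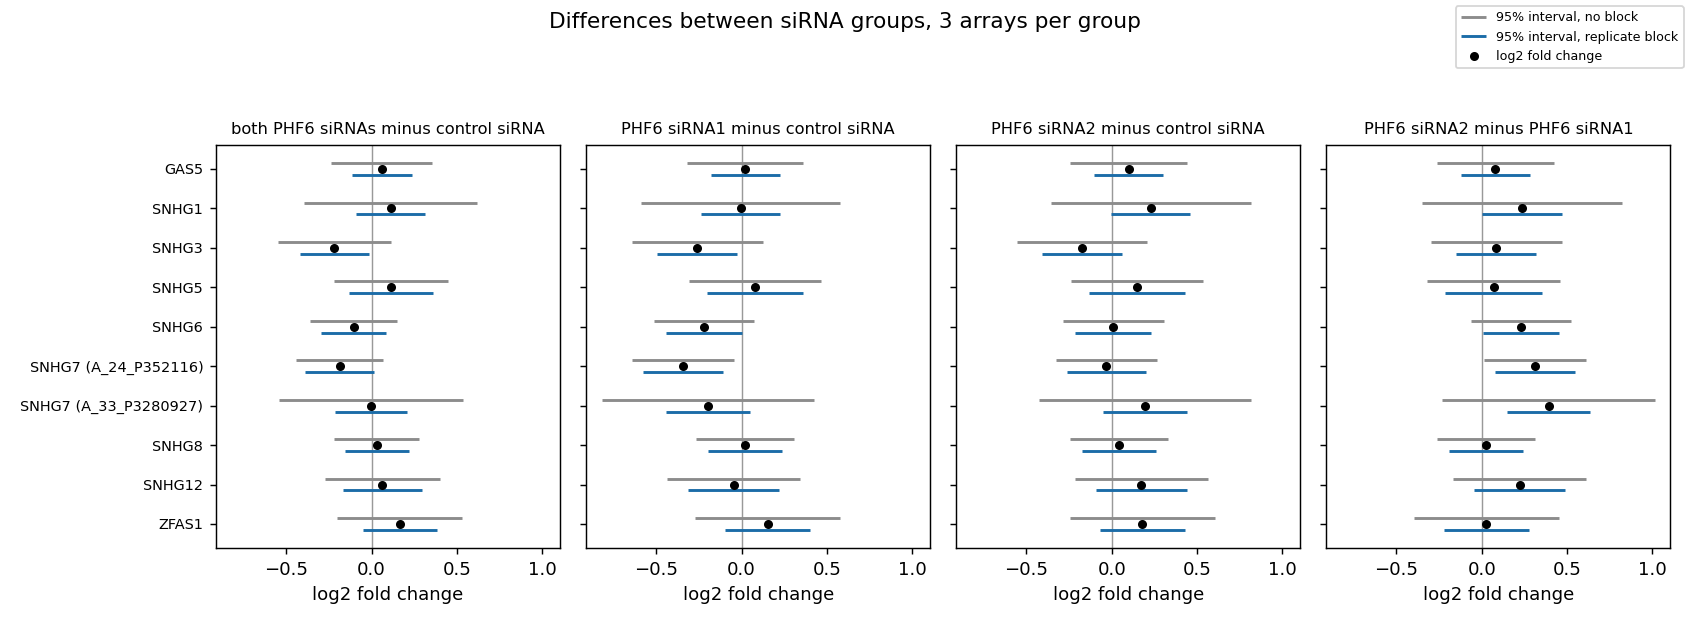
Log2 fold changes of the host gene probes in 4 comparisons, with 95% intervals without a block and with a block by replicate number.

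The 2 PHF6 siRNAs were also set against each other. All 10 host probes were higher with siRNA2 than with siRNA1, by 0.02 to 0.39, where 52.0% of all tested probes were higher, except that SNHG5 turned to -0.04 with normexp and quantile normalization and that 7 to 10 of the probes were higher with arrays left out. The probes share the same 6 arrays, so the 10 signs are not independent, and 0 of the 10 passed the adjusted threshold. The largest differences were those of SNHG7, 0.39 for A_33_P3280927 (SE 0.28, adjusted p 1.00) and 0.31 for A_24_P352116 (SE 0.13, unadjusted limma p 0.0413, adjusted p 1.00). SNHG1 followed with 0.24, SNHG6 with 0.23 and SNHG12 with 0.22. In 7 of the 10 probes siRNA2 was the higher in all 3 replicate numbers. The share of all tested probes with this pattern was not counted, so the 7 cannot be set against it. The exceptions were SNHG5 (-0.01 in replicate 1), SNHG8 (-0.13 in replicate 2) and ZFAS1 (-0.19 in replicate 1).

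Replicates 1 and 2 were hybridized on 1 slide and replicate 3 on another, so the third replicate and its slide cannot be told apart. With the slide as a block, 0 of 10 host probes passed in any of the 4 comparisons, and the lowest adjusted p with both siRNAs was 0.339, for SNHG3. With both siRNAs, the log2 difference on slide 1 and then slide 2 was 0.04 and 0.09 for GAS5, 0.14 and 0.06 for SNHG1, -0.31 and -0.03 for SNHG3, -0.05 and 0.45 for SNHG5, and -0.13 and -0.06 for SNHG6. For SNHG7 it was -0.10 and -0.36 with A_24_P352116 and -0.06 and 0.11 with A_33_P3280927. SNHG8 gave 0.02 and 0.06, SNHG12 0.09 and 0.01, and ZFAS1 0.25 and 0.00.

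Replicate numbers were compared as well, with the siRNA group as a term, a comparison chosen after seeing the data. Between replicates 2 and 1, 1 of 10 host probes passed (2913 of all probes, 8.67%). Between replicates 3 and 1 it was 2 of 10 (10025 of all probes, 29.8%; 4 host probes with the deposited table, 5 with normexp and quantile normalization and 6 with VSN on the processed signal), and between replicates 3 and 2 it was 4 of 10 (8661 of all probes, 25.8%). In all but 1 of these calls the later number was the lower. The median difference of the host probes was -0.03 for replicate 2 minus 1, -0.27 for 3 minus 1 and -0.20 for 3 minus 2, against -0.01, 0.00 and -0.01 for all tested probes.

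SNHG1 and 1 of the 2 probes of SNHG7 were lower in replicate 3 than in replicate 1 in every group. SNHG1 differed by -0.66 in control, -0.79 with siRNA1 and -0.79 with siRNA2 (fitted -0.74, SE 0.10, adjusted p 0.00131). SNHG7 A_33_P3280927 differed by -0.82, -0.85 and -0.76 in the same order (fitted -0.81, SE 0.11, adjusted p 0.00118). The other probe of SNHG7, A_24_P352116, was at 0.14 in this comparison (SE 0.10, adjusted p 0.346). The 2 that passed did so without any single array, at adjusted p up to 0.0120 for SNHG1 and 0.0104 for SNHG7. Replicate 2 was also below replicate 1 for SNHG1, by -0.52 (adjusted p 0.0148, lower in 3 of 3 groups), but this did not pass without siRNA1 replicate 1 (adjusted p 0.117), siRNA2 replicate 1 (0.0502) or siRNA1 replicate 2 (0.103).

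In replicate 3 minus replicate 2, GAS5 was at -0.33 (adjusted p 0.0274), SNHG7 A_33_P3280927 at -0.46 (adjusted p 0.0162), ZFAS1 at -0.45 (adjusted p 0.0183) and SNHG3 at 0.38 (adjusted p 0.0283). Each of these 4 has the same direction in all 3 groups, and each call is lost without certain single arrays. With any 1 array left out, the difference ran from -0.34 to -0.31 for GAS5 and from 0.31 to 0.47 for SNHG3. For SNHG7 it ran from -0.56 to -0.35 and for ZFAS1 from -0.53 to -0.37. The call for GAS5 is lost without siRNA1 replicate 1 (adjusted p 0.0515), without control (0.0597), siRNA1 (0.0771) or siRNA2 (0.0568) of replicate 2, and without control (0.0729), siRNA1 (0.0879) or siRNA2 (0.0955) of replicate 3. SNHG3 does not pass without siRNA1 (0.120) or siRNA2 (0.0662) of replicate 2, or without siRNA1 (0.119) or siRNA2 (0.127) of replicate 3. For SNHG7 the arrays are control replicate 2 (0.0579), control replicate 3 (0.0559), siRNA1 replicate 3 (0.0506) and siRNA2 replicate 3 (0.0585). For ZFAS1 they are siRNA2 replicate 2 (0.0593), siRNA1 replicate 3 (0.0906) and siRNA2 replicate 3 (0.0792).

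**Figure D2:**
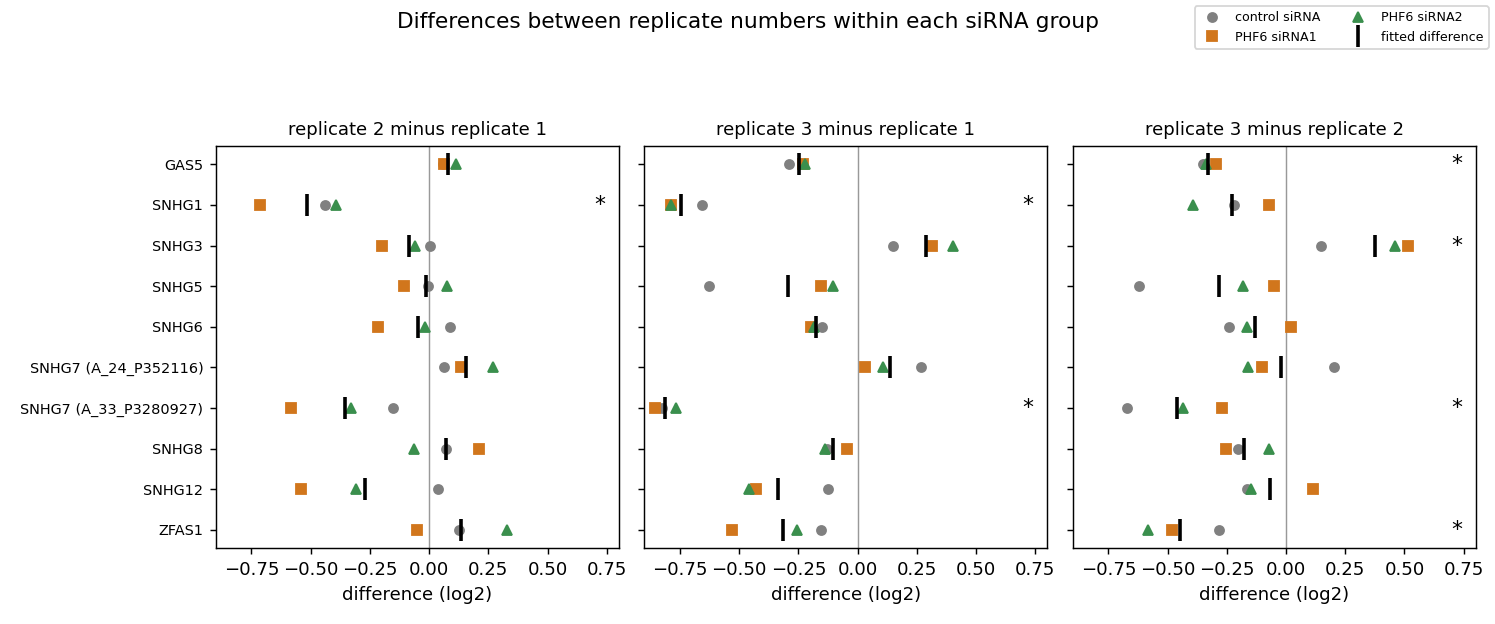
Differences of the host gene probes between replicate numbers within each group. Stars give an adjusted p under 0.05 for the fitted difference.

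The replicate number accounts for more of the spread than the siRNA group in 8 of the 10 host probes, as in 70.7% of all tested probes. Its median share of the sum of squares was 64.2% for the host probes and 50.2% for all tested probes, and that of the siRNA group 15.3% and 19.9%. GAS5 is highest with 90.4% by replicate number, then SNHG1 with 85.4%, SNHG7 A_33_P3280927 with 77.5% and ZFAS1 with 72.5%. The siRNA group has the larger share in SNHG7 A_24_P352116 (71.8%, against 14.4% by replicate number) and in SNHG6 (56.3%, against 27.9%).

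The gap between the 2 probes of SNHG7 differs between the replicates. The log2 difference of A_24_P352116 from A_33_P3280927 averaged -3.77 in replicate 1, -3.26 in replicate 2 and -2.82 in replicate 3 (SD over the 3 arrays 0.15, 0.13 and 0.27). By group it averaged -3.16 in control, -3.31 with siRNA1 and -3.39 with siRNA2. What each probe hybridizes to beyond its assigned transcript was not tested.

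The host genes were also compared in pairs across the arrays. Of 36 pairs, 29 have a Pearson correlation above 0, with a median of 0.52 (n = 9 arrays that share groups, replicates and slides), against 0.02 over pairs of the other named genes. The 7 pairs below 0 are all pairs with SNHG3. SNHG7 enters with its brighter probe, A_33_P3280927, which is below 0 with 1 of the 8 other hosts. With its other probe, a choice added after seeing the data, it is below 0 with 6 of 8, and 24 of the 36 pairs are above 0. SNHG1 and A_33_P3280927 are at the top with 0.92 (-0.17 with the other probe), and SNHG3 and ZFAS1 at the bottom with -0.87. Among 14653 other genes, the closest to the average profile of the hosts were BTBD9 (0.993), FAM226A (0.988), TM6SF1 (0.984), CEBPB (0.982) and MCUR1 (0.980), over the same 9 arrays.

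Related genes were examined with both PHF6 siRNAs against control. Of 17 further noncoding hosts, 9 are on the arrays under their symbols, and 0 of their 9 probes passed in limma with or without the block (0 at an unadjusted p under 0.05 without it; median 0.05). They run from SNHG20 at -0.12 to EPB41L4A-AS1 at 0.12. Of 87 probes of 51 protein-coding hosts 0 passed with or without the block. When the block was combined with an intensity trend and robust fit 2 passed, as did 1913 of 33595 tested probes. At an unadjusted limma p under 0.05 there were 2 without the block and 8 with it, where 21.9% of all tested probes do so. Their median log2 fold change was -0.10, from PPAN at -0.33 to RPL27A at 0.22. The RPL27A probe read low, with a control mean of 5.80, against 9.28 for PPAN.

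The snoRNAs inside the hosts are poorly covered. Of 33 snoRNAs of the 9 hosts, 2 have probes, both from SNHG3, and 0 of 3 probes passed in limma. The log2 fold change was -0.11 for SNORA73A (adjusted p 0.941) and -0.04 and -0.00 for SNORA73B (adjusted p 0.983 and 0.999). Whether these probes read the processed snoRNA or the unspliced host transcript was not tested.

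Proteins that bind, decay or regulate the host transcripts were taken next. For box C/D particle proteins 0 of 13 probes passed in limma (0 at an unadjusted p under 0.05; median -0.07), and for box H/ACA particle proteins 0 of 7 (0 at an unadjusted p under 0.05; median -0.11). For regulators of mRNAs that start with a pyrimidine tract it was 0 of 10 (0 at an unadjusted p under 0.05; median -0.06), with MYC at -0.30 and 1 TSC2 probe at 0.33. Of 25 probes of 14 nonsense-mediated decay factors 0 passed without the block (1 at an unadjusted p under 0.05; median 0.02) and 2 with it, where 2.87% of all tested probes pass. Both belong to SMG1, at 0.45 (adjusted p 0.0355; without the block 0.659) and 0.50 (adjusted p 0.0484; without the block 0.746). The other 4 of the 6 SMG1 probes, at 0.13 to 0.39, did not pass with the block. With the block, 0 of the 25 pass without the arrays of replicate 1, 0 without those of replicate 2 and 1 without those of replicate 3. Also with the block, 2 of the 13 box C/D probes and 0 of the 7 box H/ACA probes have an unadjusted p under 0.05. So do 1 of the 10 probes of pyrimidine tract regulators and 6 of the 25 decay probes. Over all tested probes the share is 21.9%, and 7.43% without the block.

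Genes beside the hosts on the chromosomes gave no call either. Of 25 neighbouring genes, 12 were tested with 15 probes, and 0 passed in limma with or without the block (median -0.03). They run from AGPAT2 at -0.40 to ZBTB37 at 0.33.

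The promoters of 8 of the 9 hosts are in the reference table. Counting a start as a pyrimidine tract when a C followed by at least 4 further C or T lies within 5 bases of the annotated start, 5 of 8 hosts have one, against 21.1% of 35116 promoters and 26 of 51 protein-coding hosts (51.0%). The tract is 12 bases long in SNHG12, 6 in SNHG8 and 5 in SNHG5, SNHG7 and ZFAS1. The same 5 hosts carry TATAA within the 40 bases before the start on the strand of the gene, a motif looked for after the sequences were seen and present in 4.34% of all promoters (5.48% on either strand). Both features together occur in 0.897% of all promoters. The palindrome CACGTG, which reads the same on both strands, was looked for from 250 bases before the start to 50 after it. It lies in 1 of the 8, SNHG7, against 7.26% of all promoters. In SNHG7 it is at position -122 from the start, outside the stretch printed below. The table holds 1 annotated start per gene. Whether it is the start used in these cells was not tested, so the 3 hosts without a tract, GAS5, SNHG1 and SNHG3, may be scored at a start other than the one in use. A match describes the sequence and was not tested for use in these cells.

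The stretches below cover the 40 bases before the annotated start and the 30 after it in GRCh38.p14 (RefSeq), with TATAA and the tract in capitals. SNHG1 is shown as a host with neither at its annotated start. The coordinates are chr1:28581844-28581913 (minus strand) for SNHG12, chr6:85678704-85678773 (minus strand) for SNHG5, chr9:136728155-136728224 (minus strand) for SNHG7, chr4:118278722-118278791 (plus strand) for SNHG8, chr20:49278602-49278671 (plus strand) for ZFAS1 and chr11:62855856-62855925 (minus strand) for SNHG1.

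SNHG12: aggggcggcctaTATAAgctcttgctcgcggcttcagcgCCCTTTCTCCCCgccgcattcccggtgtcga
SNHG5: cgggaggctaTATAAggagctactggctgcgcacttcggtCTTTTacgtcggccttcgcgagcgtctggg
SNHG7: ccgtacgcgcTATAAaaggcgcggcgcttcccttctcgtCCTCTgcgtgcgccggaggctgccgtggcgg
SNHG8: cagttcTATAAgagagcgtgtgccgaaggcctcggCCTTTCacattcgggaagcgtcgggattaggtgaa
ZFAS1: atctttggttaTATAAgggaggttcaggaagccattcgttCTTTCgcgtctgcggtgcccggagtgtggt
SNHG1: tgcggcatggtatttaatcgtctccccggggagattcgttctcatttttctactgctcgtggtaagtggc

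With 3 arrays per group, differences as large as the intervals above allow may have missed the adjusted threshold. The custom lncRNA probes carry no gene symbols, with 1 exception of 23042, so further transcripts of these hosts among them were not analysed here.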

How the data were processed

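Expression was measured in 3 groups of 3 ALL-SIL cultures on 9 one-colour (Cy3) Agilent arrays. Per the file headers, the authors extracted each spot's median intensity and its marks (well above background, outlier, saturated) with Agilent Feature Extraction 10.5.1.1, where the submitters' notes give 9.1. The deposited log2 table was normalized by the authors with VSN and served as an alternative. Here, outlier spots were left out (74 to 153 of 61537 per array, 0 saturated), repeated spots averaged, and the VSN model fitted with own code (7 iterations, quantile 0.9) to the median intensity. Testing took in the 33595 of 57176 probes that exceeded background clearly on 3 arrays or more, with 29694 to 33751 well above background per array. Symbols came from the RefSeq accession of each probe, for 25729 probes and 1 of 23042 custom probes.

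Groups were compared with limma 3.58.1 in R 4.3.3, with Benjamini-Hochberg adjustment over all tested probes and a threshold of 0.05. Tables and exact tests were made in Python 3.11.15 with numpy 2.4.6, scipy 1.17.1 and pandas 2.3.3. limma was tried on simulated data with 100 probes changed by 1 and 100 by 2 (log2). Without the block it recovered 93 and 99, with 10 false calls in that run. That run held no differences between replicate numbers, which the real arrays do show, so it does not give the recovery of the unblocked fit on them. A run with such differences, fitted with the block, recovered 92 and 99, with 8 false calls. The pairing comes from the replicate numbers in the labels: arrays of the same number correlate at 0.31 to 0.75 around their group means (9 pairs), arrays of different numbers at -0.57 to 0.13 (18 pairs). The number was therefore also fitted as a block. Alternatives were other scalings, filters, blocks, variance priors and leaving out arrays. With 3 arrays per group, the median standard error of a log2 fold change was 0.15.

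The members and the related lists were chosen with earlier results of these data known. Named genes are all members with each probe, PHF6, lineage markers and the 5 genes closest to the average profile of the members. Each related list adds its genes past the threshold or else its highest and lowest. For box C/D particle proteins these extremes are PIH1D1 (-0.24) and ZNHIT6 (0.05), and for box H/ACA particle proteins NHP2 (-0.27) and SHQ1 (0.06).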

Additional observations from a re-analysis of the deposited data

Results flagged for a closer look

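SNHG7 probe A_33_P3280927 differed between the 2 PHF6 siRNAs in its direction against control. In replicates 1, 2 and 3 the difference from control was -0.04, -0.48 and -0.07 with siRNA1 and 0.23, 0.05 and 0.29 with siRNA2, so 3 of 3 replicates lie below control with 1 siRNA and 3 of 3 above it with the other. Several of these differences are near 0. Without control replicate 3 the log2 fold change with siRNA2 is -0.055 instead of 0.19, in a fit without the block that keeps siRNA2 replicate 3. Within replicate numbers 1 and 2 alone the difference from control with siRNA2 averages 0.14. The difference itself, siRNA2 minus siRNA1, was 0.39, and in limma it did not pass the threshold (adjusted p 1.00; 0.350 with the replicate number as a block). What sets the siRNAs apart at this probe was not tested. The other SNHG7 probe, A_24_P352116, did not show opposite directions. Its differences from control in replicates 1, 2 and 3 were -0.29, -0.22 and -0.52 with siRNA1. With siRNA2 they were -0.05, 0.16 and -0.20, on both sides of control. The share of all tested probes with opposite directions in all 3 replicates was not counted.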

How the results depend on the processing

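No host probe passed the threshold under any of the 27 alternatives with both siRNAs against control, or of the 28 in each of the other 3 siRNA comparisons. Of 1110 alternative log2 fold changes, 110 moved by more than the spread between replicates, by at most 0.25. The lowest adjusted p was 0.0673, for ZFAS1 with both siRNAs under normexp and quantile normalization with the replicate block.

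The count over all probes with both siRNAs against control was 3, and became 1 when VSN used the processed signal, 5 with the 75th percentile, 5 with normexp and quantile normalization, 24 with the slide block and 964 with the replicate block. With the replicate block it was 272 with the 75th percentile, 1280 with normexp and quantile normalization, 136 when VSN used the processed signal, 855 with the deposited table and 1913 with an intensity trend and robust fit. With that fit 2 probes of protein-coding hosts passed with both siRNAs and 2 with siRNA2, against 0. Leaving out arrays gave 2 to 729, with the block 69 without replicate 1, 6 without replicate 2 and 729 without replicate 3. For siRNA1 the count went from 3 to 328 with the replicate block, for siRNA2 from 4 to 594 and for siRNA2 against siRNA1 from 4 to 13. In the main scaling, beyond SMG1, CD7, PTCRA and these counts, the block changed no other call. With VSN on the processed signal and with the 75th percentile, PHF6 passed against control in each comparison once the replicate block was added.

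The median log2 fold change of the host probes with both siRNAs was 0.046. It was -0.012 when VSN used the processed signal and 0.14 with normexp and quantile normalization, in both cases also with the replicate block, and -0.071 to 0.10 with arrays left out. For siRNA1 it was -0.026, against 0.074 with normexp and quantile normalization and -0.10 (0 of 10 above control; all probes -0.069) when VSN used the processed signal, with or without the block, and -0.23 to 0.038 with arrays left out. For siRNA2 it was 0.12, against 0.10 with the mean of the probes per gene, 0.061 when VSN used the processed signal, 0.10 with the 75th percentile and 0.23 with normexp and quantile normalization, the last 3 with or without the block, and -0.010 to 0.19 with arrays left out. For siRNA2 minus siRNA1 it was 0.15, against 0.085 with the mean of the probes per gene and 0.079 to 0.23 with arrays left out. The causes were not tested.

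PHF6 kept its direction under each alternative. With only the compared arrays its log2 fold change with siRNA1 was -1.63 (adjusted p 0.0808).

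The comparison of replicate numbers and its alternatives were chosen after seeing the data. For replicate 3 minus 1, 2 host probes passed, against 4 with the deposited table, 5 with normexp and quantile normalization and 6 with VSN on the processed signal, and 2 to 4 with arrays left out. For replicate 2 minus 1 it was 1, against 2 with normexp and quantile normalization and 0 to 2 with arrays left out. For replicate 3 minus 2 it was 4, against 2 with the 75th percentile, where GAS5 (adjusted p 0.0895) and SNHG7 (0.0565) were lost, and 0 to 4 with arrays left out. SNHG3 was lost there when VSN used the processed signal (adjusted p 0.129). The causes were not tested.

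Each host probe was well above background on 9 of 9 arrays. Their median standard error was 0.15 without the block and 0.09 with it.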
